A study of Mus musculus with 20 samples.

Results

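The genes described here store iron, move it between and within cells, or break down heme: the ferritin chains Fth1 and Ftl1, transferrin (Trf), the transferrin receptor (Tfrc), ferroportin (Slc40a1), ceruloplasmin (Cp), the divalent metal transporter Slc11a2, the iron regulatory protein Ireb2, and the heme oxygenases Hmox1 and Hmox2. Their members were taken as every array probe set whose platform annotation names one of these 10 genes, a rule that used no measured value. It found 29 of the 45101 probe sets on the array, and the 10 genes are among 19324 named by the annotation. Of these, 3 were Affymetrix control probe sets for Tfrc, which were left out of the tests, and 20 were bright enough to be tested. The tested probe sets covered 9 of the 10 genes, since the only probe set of Hmox1 was too dim.

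Messenger RNA of the neocortex was measured in 20 male B6C3F1 mice, the first-generation hybrid of C57BL/6 and C3H parents, with 1 array per animal and 5 animals in each of 4 groups. The mixture group was 30 months old and had received 500 mg/kg α-tocopherol with 500 mg/kg γ-tocopherol, both forms of vitamin E, from the age of 15 months. The α-tocopherol group was 30 months old and had received 1000 mg/kg α-tocopherol alone from the same age. The old control group was 30 months old and the young control group 5 months old, and both ate the control diet. All mice were housed singly. The design asks which transcripts differ with age and whether either supplement moves them. No group received γ-tocopherol alone, so its part cannot be told apart from that of the lower α-tocopherol dose.

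Many cells take up iron bound to transferrin through the transferrin receptor, and Slc11a2 then carries it out of the endosome into the cytosol. Ferritin, a shell of heavy (Fth1) and light (Ftl1) chains, holds iron in a safe form; the heavy chain oxidises the iron and the light chain helps to build the mineral core. Ferroportin exports iron, ceruloplasmin oxidises it on the way out, and heme oxygenases free iron from heme. Iron regulatory proteins, of which Ireb2 is one, bind ferritin and Tfrc messages when iron is scarce, blocking ferritin translation and stabilising Tfrc mRNA. In the brain, oligodendrocytes are rich in iron, ferritin and transferrin, and astrocytes make ceruloplasmin.

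The promoters of the ferritin chains are shown because probe sets of both chains were higher in old control than in young control mice. The sequences are the 120 bases before each RefSeq start site of assembly GRCm38.p6, read 5′ to 3′ on the strand of the gene. Capitals mark ATTGG, which is the CCAAT box on the opposite strand. Fth1 has a pair of start sites in the table, at chr19:9980480-9980599 and chr19:9982526-9982645, both on the plus strand, and Ftl1 has 1, at chr7:45459887-45460006 on the minus strand.
Fth1 start 1: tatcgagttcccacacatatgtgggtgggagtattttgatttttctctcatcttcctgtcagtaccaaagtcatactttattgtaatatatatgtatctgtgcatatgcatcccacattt
Fth1 start 2: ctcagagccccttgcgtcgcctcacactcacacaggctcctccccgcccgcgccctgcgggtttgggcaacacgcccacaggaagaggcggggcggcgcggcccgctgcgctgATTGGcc
Ftl1: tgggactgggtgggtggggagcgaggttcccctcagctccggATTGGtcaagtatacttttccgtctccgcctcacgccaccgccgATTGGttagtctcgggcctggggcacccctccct
The search covered the CCAAT box (CCAAT), the core of the TATA box (TATAA) and the core of the antioxidant response element (TGACNNNGC), on both strands, and no matches overlapped in these windows. Ftl1 held CCAAT at -78 to -74 and at -34 to -30 from the start, and the second Fth1 start held it at -7 to -3. Of 32851 promoter windows of the same length, 21.3% held the CCAAT box, 11.8% the TATA box core and 5.7% the antioxidant response element core. A match of letters is a description of the window only. The other members with an entry, 6 of the 10 in all, include Cp, whose second start held the TATA box core on both strands, overlapping between -26 and -21, and a CCAAT box at -118 to -114.

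Old control mice had higher signals than young control mice on 7 of the 20 tested probe sets, and no lower signal passed the test. The 7 name ferritin heavy chain, ferritin light chain, transferrin and ceruloplasmin. The threshold was an adjusted p under 0.05 from limma with Benjamini-Hochberg adjustment over all 27022 probe sets tested, and 18.9% of those passed it in this comparison, 9.33% higher and 9.54% lower. The median difference of log2(signal + 16) was 0.12 over the 20 iron and heme probe sets and -0.05 over all tested. Under other scalings, quantile normalization or cyclic loess, 5 of the 20 were higher and none lower, 4 of them among the 7. Of all 27022 probe sets, 2423 and 2460 were then higher. With the medians of the arrays set equal, 9 of the 20 were higher and none lower, the 7 among them, and 4715 of all probe sets were higher. At an unadjusted p under 0.05, 10 of the 20 passed, where 33.5% of all did. On 5 of the 20, no old control mouse overlapped a young control mouse, where 14.3% of all tested probe sets had groups that did not overlap. In the mixture group 1 Fth1 probe set was lower and 1 Tfrc probe set higher than in old control, 2 of 20. Of all probe sets tested 3.59% passed in that comparison, 1.3% higher and 2.29% lower, and 8 of the 20 had an unadjusted p under 0.05, where 20.1% of all did. The mixture and old control mice did not overlap on 3 of the 20, where 5.72% of all tested probe sets had groups that did not overlap. No tested member passed for α-tocopherol against old control or for the mixture against α-tocopherol, and no probe set of the whole array did, a share of 0% each. All fold changes are on the log2(signal + 16) scale, which understates changes of dim probe sets.

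**Figure D1:**
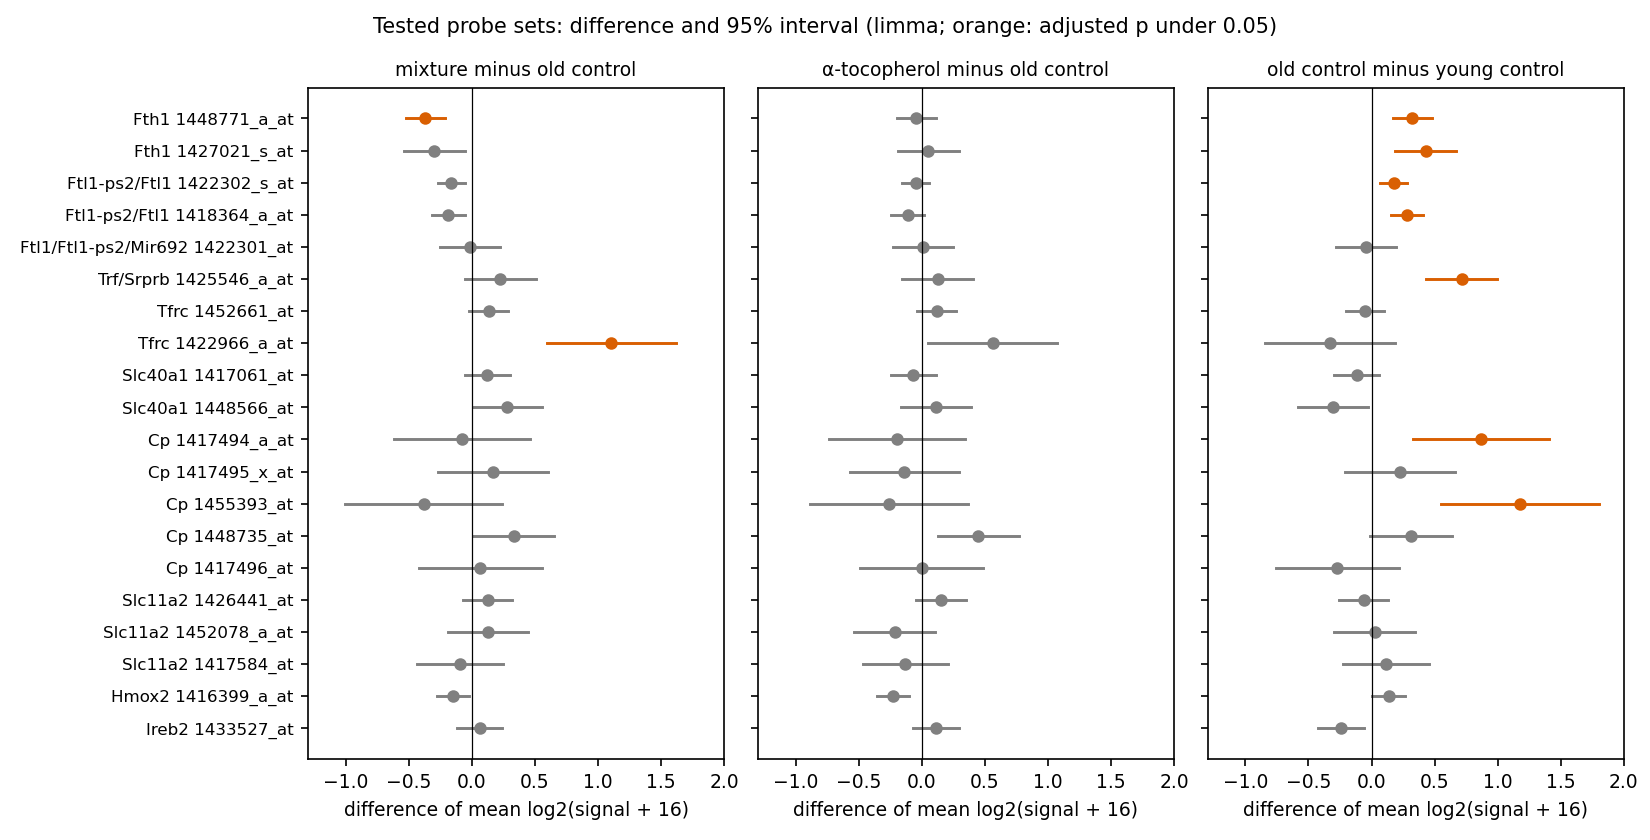
Difference of mean log2(signal + 16) for each of the 20 tested probe sets, with its 95% confidence interval from limma, in 3 comparisons of 5 mice per group. Orange marks an adjusted p under 0.05: 2 probe sets for the mixture minus old control, none for α-tocopherol minus old control and 7 for old control minus young control.

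Several measures of the arrays themselves differed with the groups. The median signal per array averaged 308 ± 17.0 in the mixture group, 296 ± 15.3 in the α-tocopherol group, 292 ± 12.4 in old control and 321 ± 6.24 in young control (SD, n = 5 each). The ratio of the 3′ to the 5′ control probe set of β-actin, a measure of RNA integrity and labelling, averaged 1.43 ± 0.145 in the mixture group, 1.67 ± 0.391 in the α-tocopherol group, 2.04 ± 0.339 in old control and 1.52 ± 0.135 in young control. Old control mice thus had the highest ratios on average. Of the neuronal markers, 6 of 6 were bright enough to test and none was listed at 0. Their summed signals were 89358 to 101149 in the mixture group, 100476 to 129665 in the α-tocopherol group, 106786 to 129712 in old control and 100501 to 106023 in young control. Sums of linear signals, here and for the marker lists below, follow mainly the brightest markers and any shift of the bright end of an array. In whole tissue, more cells of a type and more mRNA per cell cannot be told apart.

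Ferritin heavy chain mRNA was higher in old control than in young control on both of its probe sets. On probe set 1448771_a_at the signals were 31395, 28092, 32196, 27375 and 27516 in the mixture mice and 40612, 35896, 38783, 37138 and 31694 in the α-tocopherol mice. They were 32532, 38396, 39774, 36567 and 42328 in old control mice and 29302, 31052, 28140, 30211 and 32398 in young control mice. Every old control mouse lay above every young control mouse and above every mixture mouse, whereas the α-tocopherol mice overlapped old control. Old control exceeded young control by 0.32 ± 0.07 log2 units (SE, 1.25-fold, adjusted p = 0.00502). The mixture group lay below old control by a log2 difference of -0.37 ± 0.07 (1.29-fold lower, adjusted p = 0.0130). The α-tocopherol group differed from old control by -0.04 log2 units (adjusted p = 0.959).

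The second Fth1 probe set, 1427021_s_at, spread more among the aged mice. It averaged 26424 ± 1588 in the mixture group, 33916 ± 5019 in the α-tocopherol group, 33179 ± 7651 in old control and 24134 ± 1439 in young control (SD, n = 5 each). The old control mice ran between 24588 and 41946 and the young control mice between 21993 and 25530, so these groups overlapped. Old control was 0.43 ± 0.12 log2 units higher than young control (1.35-fold, adjusted p = 0.0134), and the mixture differed from old control by -0.30 ± 0.12 (adjusted p = 0.147). Over the 20 arrays the log2 signals of both Fth1 probe sets correlated with r = 0.85, a figure that shares the scaling of each array.

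Both Fth1 probe sets stood among the strongest signals of the array, at ranks 26 and 70 of 45037, and the bright end of the arrays moved as a whole. Of the 100 probe sets with the highest mean signal, 78 were higher and none lower in old control than in young control, with a median log2 difference of 0.30. In the mixture against old control, 85 of the 100 were lower and none higher, with a median of -0.38. The highest signal on an array averaged 36713 ± 2249 in the mixture group, 47418 ± 6970 in the α-tocopherol group, 50321 ± 8974 in old control and 39854 ± 6005 in young control (SD, n = 5 each). The Fth1 differences are therefore close to the median of the 100 in both comparisons. After quantile normalization, which gives every array the same distribution of signals, old control minus young control was 0.02 (adjusted p = 0.785) on 1448771_a_at and 0.14 (adjusted p = 0.193) on 1427021_s_at, and the mixture minus old control was 0.01 (adjusted p = 0.938) on 1448771_a_at, with its sign turned. With cyclic loess normalization the age differences were 0.12 (adjusted p = 0.124) and 0.24 (adjusted p = 0.0965), and the mixture difference on 1448771_a_at was -0.13 (adjusted p = 0.217). With the β-actin ratio in the model, the mixture difference on that probe set was -0.31 (adjusted p = 0.725) and the age difference 0.28 (adjusted p = 0.0689). The age call of 1427021_s_at was also lost with that ratio in the model.

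**Figure D2:**
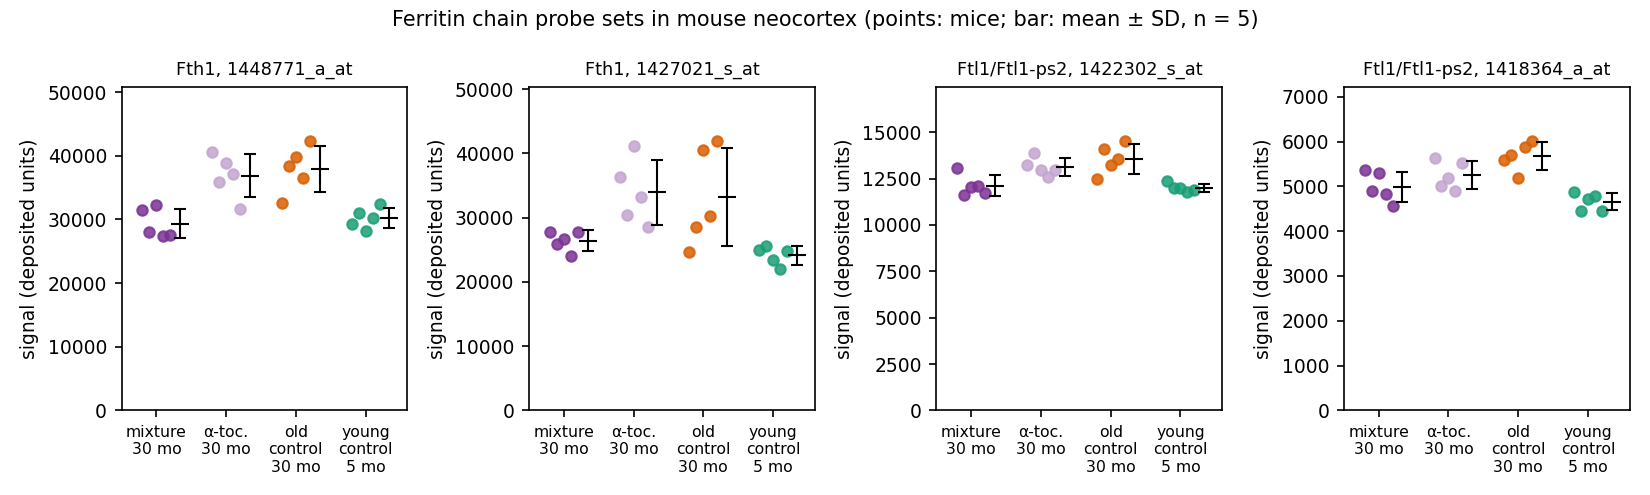
Deposited signal of the ferritin probe sets in each mouse (points), with the mean and SD of 5 mice beside them, by group. On Fth1 1448771_a_at the old control mice lay between 32532 and 42328, above all mixture and young control mice, and on Ftl1/Ftl1-ps2 1418364_a_at every old control mouse lay above every young control mouse.

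Ferritin light chain was represented by probe sets annotated to both Ftl1 and its pseudogene copy Ftl1-ps2, so their signal cannot be assigned to 1 of the 2. On probe set 1418364_a_at the mixture mice had signals of 5361, 4901, 5288, 4825 and 4557 and the α-tocopherol mice 5627, 5015, 5192, 4896 and 5515. Old control mice had 5597, 5689, 5195, 5883 and 6014, against 4875, 4457, 4708, 4785 and 4460 in young control mice. Old and young control mice did not overlap. Old control was higher by 0.28 ± 0.06 log2 units (SE, 1.22-fold, adjusted p = 0.00334). This difference passed under each of the 11 other settings that could be run and without each of the 10 mice compared, with values of 0.24 after quantile normalization (adjusted p = 0.00672) and 0.23 after cyclic loess (adjusted p = 0.00913). The mixture group differed from old control by -0.19 (adjusted p = 0.0875) and the α-tocopherol group by -0.11 (adjusted p = 0.883).

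Another light chain probe set, 1422302_s_at, averaged 12104 ± 566 in the mixture group, 13121 ± 489 in the α-tocopherol group, 13566 ± 796 in old control and 11999 ± 223 in young control (SD, n = 5 each). Its old control mice lay between 12458 and 14531, all above the young control mice at 11783 to 12364. The age difference was 0.18 ± 0.05 log2 units (1.13-fold, adjusted p = 0.0228). It was 0.05 under quantile normalization (adjusted p = 0.529) and 0.05 under cyclic loess (adjusted p = 0.522), and the call was lost without old control mouse 2 (adjusted p = 0.0531) or without old control mouse 5 (adjusted p = 0.0647). The mixture differed from old control by -0.16 on this probe set (adjusted p = 0.0783). A probe set that is also annotated to copies of Mir692, 1422301_at, averaged 818 ± 142 in the mixture group, 825 ± 60.8 in the α-tocopherol group, 820 ± 67.6 in old control and 848 ± 109 in young control. Correlations between light chain probe sets over the 20 arrays ran from r = -0.05 to r = 0.78, so they did not follow each other as closely as the heavy chain pair.

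Transferrin, the iron carrier that oligodendrocytes make in brain, gave an age difference that, like that of Ftl1/Ftl1-ps2 1418364_a_at, held under every setting that could be run. Its probe set, 1425546_a_at, is annotated to both Trf and Srprb, a subunit of the signal recognition particle receptor, and its signal cannot be assigned to 1 of them. The signals were 6019, 4830, 8940, 6323 and 5084 in the mixture mice and 5864, 5780, 6254, 4902 and 5699 in the α-tocopherol mice. They were 5084, 6327, 3688, 5329 and 6058 in old control mice and 3165, 3154, 3141, 3158 and 3231 in young control mice. All 15 aged mice lay above all 5 young control mice, whose values were nearly equal. Old control exceeded young control by 0.71 ± 0.14 log2 units (SE, 1.64-fold, adjusted p = 0.00134). Over the 11 other settings the difference ran from 0.66 to 0.85 with adjusted p between 0.000433 and 0.00600, and without each mouse in turn from 0.64 to 0.84 with adjusted p between 0.000369 and 0.00472. The mixture differed from old control by 0.22 (95% interval -0.06 to 0.51, adjusted p = 0.376) and α-tocopherol by 0.13 (-0.16 to 0.41, adjusted p = 0.925).

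Most markers of oligodendrocytes, the glial cells that form myelin, moved in the same direction with age. Of 9 tested, 6 were higher and none lower in old control than in young control. Differences of Cldn11 (-0.35, adjusted p = 0.0759), Mal (-0.16, adjusted p = 0.167) and Mog (-0.02, adjusted p = 0.941) were negative without passing. Summed signals were 91257 to 108253 in old control mice and 71751 to 85595 in young control mice. The sums were 78362 to 91635 in the mixture mice and 91578 to 113573 in the α-tocopherol mice, and against old control 1 marker, Mbp, was lower in the mixture. The lowest signal on any array was 29876 for Mbp and 781 for Mog, so the sums weigh Mbp far more than Mog. Of 7 astrocyte markers, 7 were higher in old control (sums of 76336 to 88047 in old control and 51143 to 55281 in young control), and of 7 microglial markers 5 were higher and 1, P2ry12, was lower (21086 to 24157 in old control and 14608 to 15611 in young control). Of 6 neuronal markers, 4 (Snap25, Syt1, Rbfox3 and Tubb3) were higher and none lower in old control than in young control, and the same 4 were lower and none higher in the mixture than in old control, the directions of Fth1 in both comparisons. P2ry12 was higher in the mixture than in old control (0.50, adjusted p = 0.0304). The mixture calls of P2ry12 and Mbp were lost under quantile normalization, under cyclic loess and with the β-actin ratio in the model. With the medians of the arrays set equal, that of P2ry12 was lost and that of Mbp was kept. After quantile normalization 5 oligodendrocyte, 6 astrocyte, 5 microglial and 1 neuronal marker remained higher with age, and no neuronal marker passed for the mixture. Under cyclic loess 3 oligodendrocyte markers were higher and 1 lower, with 7 astrocyte, 5 microglial and 1 neuronal marker higher. With the β-actin ratio in the model, 3 oligodendrocyte, 5 astrocyte, 3 microglial and 0 neuronal markers were higher. None of these markers was listed at 0. Their part in the transferrin and ferritin differences was not tested.

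**Figure D3:**
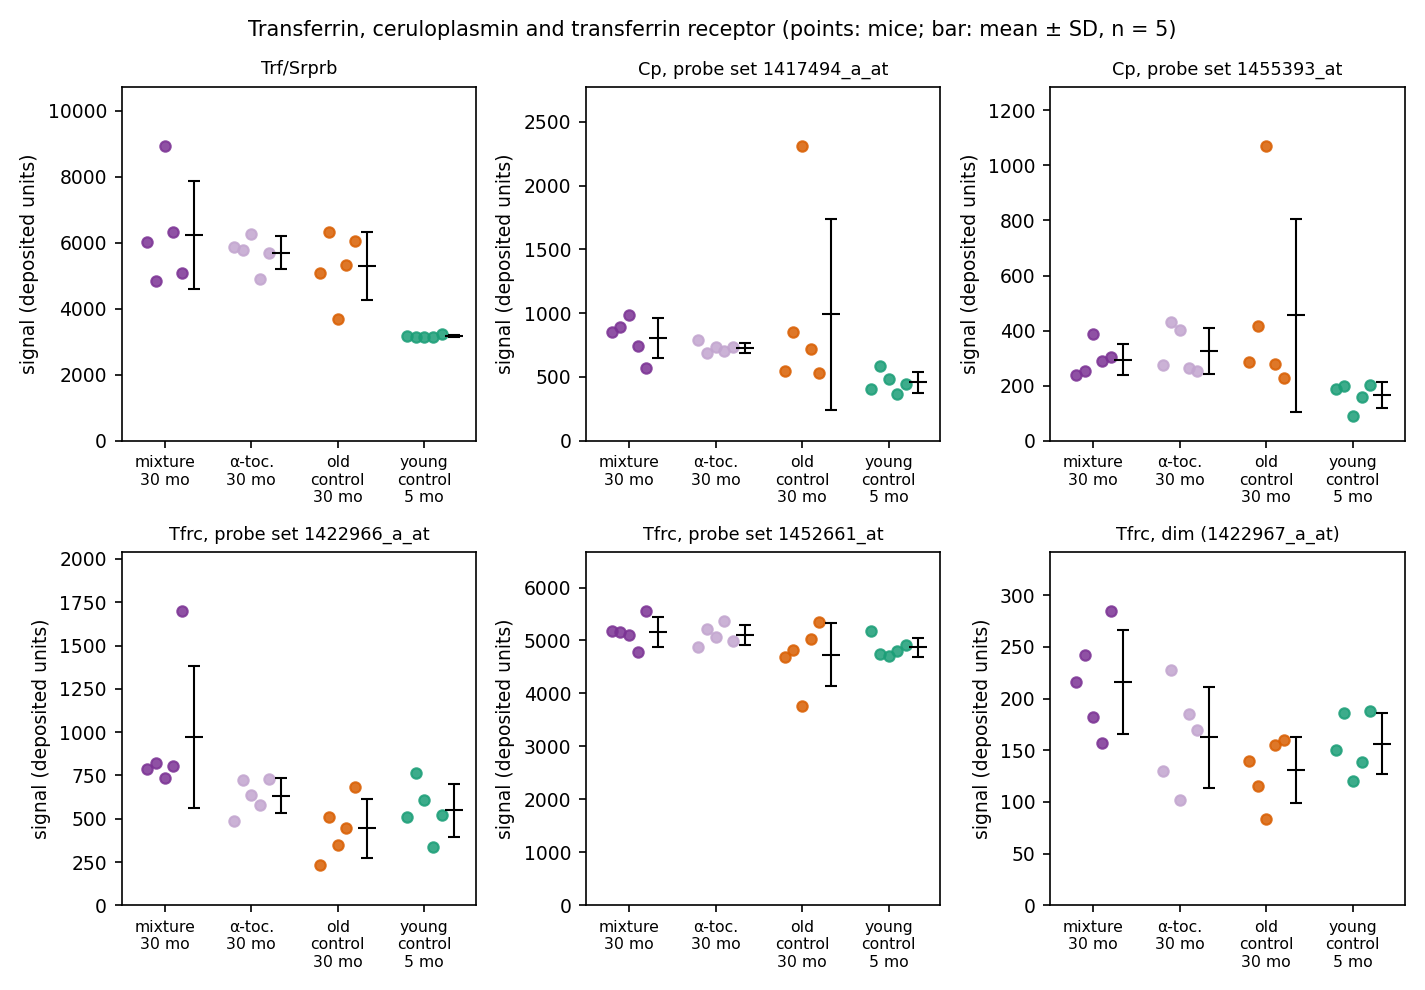
Deposited signal of the transferrin, ceruloplasmin and transferrin receptor probe sets in each mouse (points), with the mean and SD of 5 mice beside them, by group. Young control mice lay between 3141 and 3231 on Trf/Srprb, below all other mice, and mixture mouse 5 reached 1701 on Tfrc 1422966_a_at while the other mixture mice lay between 736 and 821.

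The transferrin receptor Tfrc, which brings transferrin-bound iron into the cell, was higher with the mixture on 1 of its 2 tested probe sets. On 1422966_a_at the mixture mice had signals of 789, 821, 736, 807 and 1701 and the α-tocopherol mice 488, 725, 640.0, 581 and 729. Old control mice had 234, 510, 347, 449 and 686, and young control mice 512, 763, 607, 338 and 521. Every mixture mouse lay above every old control mouse and above every α-tocopherol mouse, while the α-tocopherol, old control and young control mice overlapped. Of all tested probe sets, 5.72% had groups that did not overlap for the mixture against old control and 1.2% for the mixture against α-tocopherol. The mixture exceeded old control by 1.10 ± 0.25 log2 units (SE, 2.15-fold, adjusted p = 0.0198). The call was lost without mixture mouse 5 (0.89, adjusted p = 0.0636), without old control mouse 3 (1.04, adjusted p = 0.0553), under quantile normalization (1.05, adjusted p = 0.0543) and with the β-actin ratio in the model (0.37, adjusted p = 0.912).

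The other Tfrc probe sets gave smaller or untested differences. On 1452661_at the signal averaged 5158 ± 279 in the mixture group, 5105 ± 191 in the α-tocopherol group, 4733 ± 592 in old control and 4871 ± 184 in young control (SD, n = 5 each), and the mixture differed from old control by 0.13 ± 0.07 log2 units (adjusted p = 0.327). The interval of that difference, -0.02 to 0.28, lies below that on 1422966_a_at, 0.59 to 1.62. The dim probe set 1422967_a_at averaged 216 ± 50.2 in the mixture group, 163 ± 48.7 in the α-tocopherol group, 131 ± 31.7 in old control and 156 ± 29.6 in young control, and fitted without the limit on dim probe sets the mixture difference was 0.67 (adjusted p = 0.158). The Affymetrix 3′ control probe set for Tfrc averaged 575 ± 154 in the mixture group, 394 ± 88.1 in the α-tocopherol group, 360 ± 104 in old control and 337 ± 82.6 in young control, and its 3′ to 5′ ratio averaged 5.65 ± 1.30 in the mixture group, 5.47 ± 1.42 in the α-tocopherol group, 4.86 ± 1.10 in old control and 4.70 ± 1.71 in young control. No Tfrc probe set passed between old control and young control, with differences of -0.05 (adjusted p = 0.666) on 1452661_at and -0.33 (adjusted p = 0.369) on 1422966_a_at.

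Slc11a2, which moves iron from the endosome to the cytosol, passed in no comparison on any of its 3 tested probe sets. The set 1426441_at averaged 1193 ± 154 in the mixture group, 1214 ± 126 in the α-tocopherol group, 1090.4 ± 107 in old control and 1136 ± 58.7 in young control (SD, n = 5 each). Differences of old control from young control lay between -0.06 and 0.11 log2 units over the 3 sets. On 1452078_a_at the mixture averaged 762 ± 123 and α-tocopherol 595 ± 67.5, a log2 difference of 0.34 (95% interval 0.02 to 0.66, adjusted p = 0.562). Of the 6 member probe sets below the limit on signal, 1 each name Tfrc, Slc11a2 and Hmox1 and 3 name Cp. Fitted without that limit, they had adjusted p of 0.118 or more in every comparison.

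Ceruloplasmin, the copper enzyme that oxidises exported iron, was higher in old control than in young control on 2 of 5 tested probe sets. On 1417494_a_at the signals were 849, 888, 981, 740.4 and 567 in the mixture mice and 789, 685, 732, 701 and 737 in the α-tocopherol mice. They were 548, 852, 2311, 715 and 531 in old control mice and 408, 587, 483, 368 and 443 in young control mice. Old control mouse 3 stood far above the others, and the lowest old control mice overlapped the highest young control mouse. The age difference was 0.87 ± 0.26 log2 units (SE, 1.83-fold, adjusted p = 0.0233). Without old control mouse 3 it was 0.51 (adjusted p = 0.0334). The call was lost without young control mouse 4 (0.80, adjusted p = 0.0534), in a fit of the compared groups alone (adjusted p = 0.0676) and with the β-actin ratio in the model (0.51, adjusted p = 0.311).

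On the Cp probe set 1455393_at old control mice had signals of 287, 415, 1071, 277 and 228, against 188, 199, 88.0, 157 and 201 in young control mice. The mixture mice had 240, 252, 386, 289 and 305 and the α-tocopherol mice 274, 432, 401, 266 and 255. Every old control mouse lay above every young control mouse, and the supplemented mice fell within the range of old control. The difference of old control from young control was 1.18 ± 0.30 log2 units (2.26-fold, adjusted p = 0.00957), and 0.82 without old control mouse 3 (adjusted p = 0.0198). Adding the β-actin ratio to the model ended the call (0.95, adjusted p = 0.118). Old control mouse 3 also had the highest β-actin ratio, 2.52, of the old control group.

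The remaining Cp probe sets varied among themselves. The set 1448735_at averaged 316 ± 36.4 in the mixture group, 347 ± 54.7 in the α-tocopherol group, 249 ± 42.8 in old control and 198 ± 34.4 in young control (SD, n = 5 each). It passed the F test over the 4 groups (adjusted p = 0.00476) but no single comparison, with 0.33 for the mixture against old control (adjusted p = 0.235), 0.45 for α-tocopherol against old control (adjusted p = 0.883) and 0.31 for old control against young control (adjusted p = 0.163). The age difference on it passed after quantile normalization (0.47, adjusted p = 0.0371) and after cyclic loess (0.45, adjusted p = 0.0418). The sets 1417495_x_at and 1417496_at gave age differences of 0.22 (adjusted p = 0.477) and -0.27 (adjusted p = 0.444), so the Cp probe sets did not share 1 direction. Correlations between pairs of Cp probe sets, 28 in all with the dim ones, ran from r = -0.54 to r = 0.82 over the 20 arrays.

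Markers of the choroid plexus, an epithelium that can be caught in dissection and that makes both transferrin and ceruloplasmin, were present in every group. Their summed signals ran from 32086 to 39174 in the mixture group, 18608 to 48179 in the α-tocopherol group, 10501 to 52400 in old control and 28605 to 42443 in young control. Of 7 tested, none was higher and 1, Kl, was lower in old control than in young control (-1.05, adjusted p = 0.0494). This call was lost under cyclic loess, with the medians of the arrays set equal and with the β-actin ratio in the model. It was also lost under quantile normalization, where 1 other marker was lower instead. Of 6 meningeal markers, none passed in either direction between old control and young control. In the mixture against old control, Kl (1.48, adjusted p = 0.0304) and the meningeal marker Islr (0.44, adjusted p = 0.0392) were higher, and neither list had a call there under quantile normalization or cyclic loess. The 3 blood markers measured were too dim to test, with sums of 109 to 863 over all mice. Their part in the Trf and Cp differences, and in those of the mixture, was not tested.

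Ferroportin (Slc40a1), the iron exporter, passed in no comparison. Its probe set 1448566_at averaged 597 ± 72.3 in the mixture group, 531 ± 74.6 in the α-tocopherol group, 487 ± 38.5 in old control and 616 ± 130 in young control (SD, n = 5 each), a difference of -0.31 ± 0.13 between old control and young control (adjusted p = 0.109). The set 1417061_at averaged 692 ± 24.0 in the mixture group, 605 ± 37.7 in the α-tocopherol group, 636 ± 46.4 in old control and 691 ± 50.4 in young control. On this set the mixture mice all lay above the α-tocopherol mice, as on 1.2% of all tested probe sets (log2 difference 0.19, 95% interval 0.01 to 0.37, adjusted p = 0.563). The log2 signals of both sets correlated with r = 0.23 over the 20 arrays.

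Ireb2, the iron regulatory protein that is itself degraded when iron is plentiful, came close to the threshold with age. Its signals were 1796, 1976, 1861, 1940 and 2132 in old control mice, against 2343, 2513, 2031, 2139 and 2491 in young control mice. The mixture group averaged 2028 ± 186 and the α-tocopherol group 2110 ± 229 (SD, n = 5 each). The groups overlapped only at the highest old control mouse and the lowest young control mouse. The difference of old control from young control was -0.24 ± 0.09 log2 units (SE, adjusted p = 0.0549), and it was -0.11 with the medians of the arrays set equal (adjusted p = 0.540). It passed when only the compared groups were fitted (adjusted p = 0.0487), with the brightest probe set per gene (adjusted p = 0.0445), among the brightest 40% of probe sets (adjusted p = 0.0468), without old control mouse 5 (adjusted p = 0.0463) and without young control mouse 3 (adjusted p = 0.0370). Apart from the equal medians, it did not pass under 7 of the 12 other settings. It also did not pass in 8 of the 10 fits that left out 1 mouse (adjusted p up to 0.130).

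The heme oxygenase gene Hmox2, whose product is made constitutively and is abundant in brain, had lower signals in supplemented mice without passing against old control. Its signals were 4895, 5078, 4855, 5089 and 4616 in the mixture mice, 4836, 4785, 4207, 4357 and 5016 in the α-tocopherol mice, 5487, 5758, 5441, 5413 and 5090 in old control mice, and 5281, 4733, 4716, 5267 and 4775 in young control mice. All 10 supplemented mice lay below all 5 old control mice, though the closest pair differed by less than 1 signal unit, while old and young control mice overlapped. The log2 difference was -0.15 ± 0.06 for the mixture against old control (adjusted p = 0.177) and -0.23 ± 0.06 for α-tocopherol against old control (adjusted p = 0.883). Those comparisons share the old control mice. Groups that did not overlap occurred in 5.72% of all tested probe sets for the mixture against old control and 0.707% for α-tocopherol against old control. The F test over the 4 groups gave an adjusted p of 0.0475, a call that 21.4% of tested probe sets reached and that was lost in 16 of the 20 fits that left out 1 mouse.

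Hmox1, the inducible heme oxygenase, lay below the limit of 184 set on the mean signal. It had signals of 61.8, 62.5, 121, 84.5 and 215 in the mixture mice, 105, 76.4, 218, 27.8 and 63.7 in the α-tocopherol mice, 62.9, 74.9, 329, 76.9 and 272 in old control mice, and 78.0, 87.8, 233, 76.5 and 243 in young control mice. Mice 3 and 5 had the highest signals in the mixture, old control and young control groups, and mouse 3 in the α-tocopherol group. What same-numbered mice share on this probe set was not tested. All groups overlapped. Fitted without the limit, old control minus young control was 0.04 ± 0.48 log2 units (SE, adjusted p = 0.973). No difference of Hmox1 was found, at a dim signal that spread widely among the mice of a group.

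**Figure D4:**
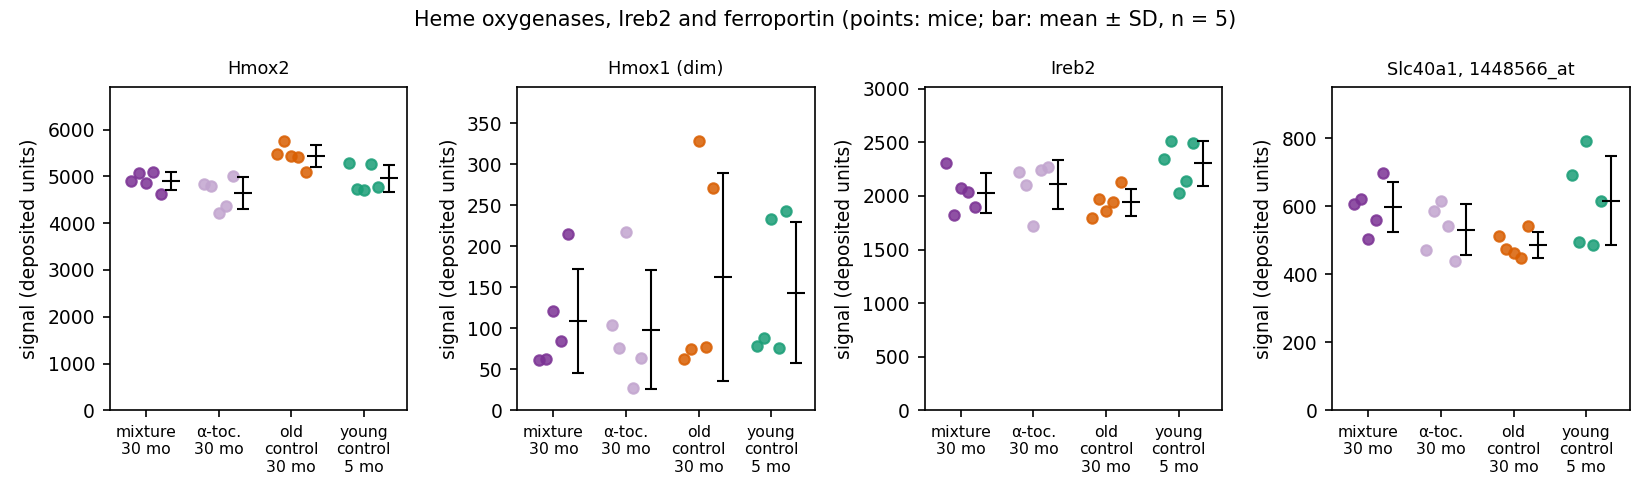
Deposited signal of Hmox2, Hmox1, Ireb2 and Slc40a1 1448566_at in each mouse (points), with the mean and SD of 5 mice beside them, by group. On Hmox2 the mixture and α-tocopherol mice lay between 4207 and 5089, below the old control mice at 5090 to 5758.

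The supplements were set against each other on all 20 tested probe sets, adjusted over the whole array as 1 of the 4 pairs of groups compared. Both groups received 1000 mg/kg of tocopherol in total, all as α-tocopherol in one and as equal parts of α- and γ-tocopherol, which differ by a methyl group on the ring, in the other. No probe set passed, and the lowest adjusted p of the whole array was 0.176. That lowest adjusted p was also that of Fth1 1448771_a_at, on which the mixture minus α-tocopherol was -0.33 ± 0.07 log2 units (SE, 95% interval -0.48 to -0.17). Among the 100 brightest probe sets the median of this difference was -0.32. Without α-tocopherol mouse 5 the Fth1 difference passed (-0.38, adjusted p = 0.0395), as 1 of 64 probe sets that then did. On Tfrc 1422966_a_at the difference was 0.54 (95% interval 0.03 to 1.06, adjusted p = 0.565), on Trf/Srprb 0.10 (-0.18 to 0.38, adjusted p = 0.887) and on Hmox2 0.08 (-0.04 to 0.21, adjusted p = 0.769). Intervals of this width do not show that the supplements act alike. At an unadjusted p under 0.05, 6 of the 20 probe sets passed for the mixture against α-tocopherol, where 8.39% of all did, and 3 of 20 for α-tocopherol against old control, where 5.45% did.

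**Figure D5:**
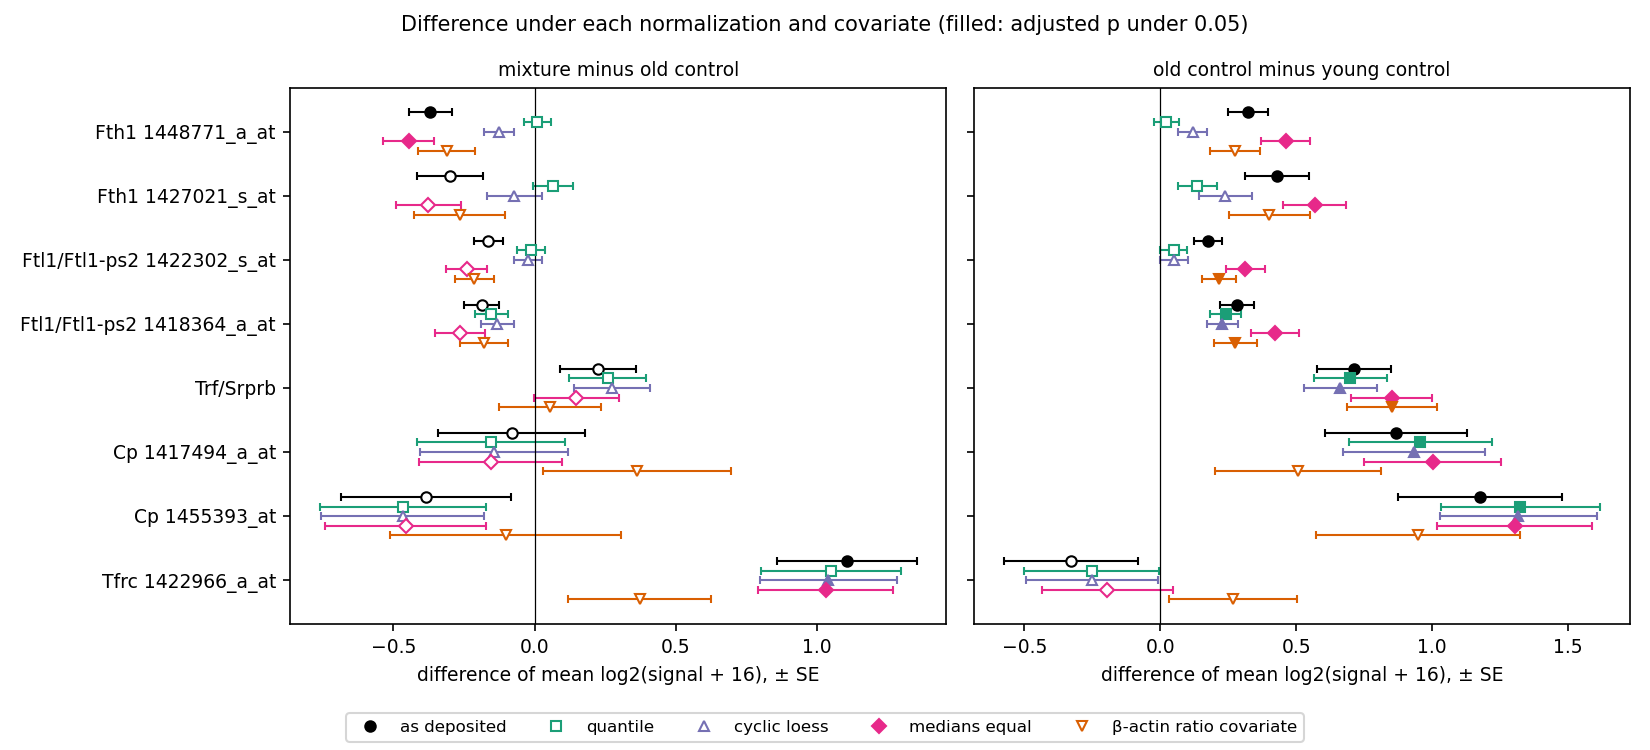
Difference of mean log2(signal + 16) with its SE for 8 probe sets under the deposited scaling, 3 other scalings and with the β-actin ratio in the model. Filled symbols mark an adjusted p under 0.05. Trf/Srprb lies between 0.66 and 0.85 for old control minus young control and is filled in every case, whereas Fth1 1448771_a_at moves to 0.02 for age and to 0.01 for the mixture under quantile normalization.

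Other genes of iron and heme handling were drawn from a list of 52, of which 43 had a tested probe set, 67 in all. In old control against young control, 5 of the 67 were higher and 9 lower, with a median log2 difference of -0.08 against -0.05 for all probe sets. The share that passed is near the 18.9% of all probe sets, of which 9.33% were higher and 9.54% lower. With the medians of the arrays set equal, 9 were higher and 4 lower, with a median of 0.06. Iscu, the scaffold of iron-sulfur cluster assembly, averaged 8656 ± 295 in old control and 12518 ± 1306 in young control (SD, n = 5 each, log2 difference -0.53, adjusted p = 0.000526). Ncoa4, which delivers ferritin to the lysosome, averaged 3064 ± 484 in old control and 4000 ± 241 in young control on 1420808_at (-0.40, adjusted p = 0.00297). Fech, which inserts iron into heme, averaged 3518 ± 145 in old control and 4407 ± 168 in young control (-0.32, adjusted p = 0.00269). Other tested probe sets of Ncoa4 and Fech did not pass: the second of Ncoa4 gave 0.04 (adjusted p = 0.879), and those of Fech gave -0.17 (adjusted p = 0.314) and -0.08 (adjusted p = 0.506). On 1441862_at Ppox, of heme synthesis, fell by 1.15 log2 units (adjusted p = 0.00546), while its other sets gave -0.13 (adjusted p = 0.573) and -0.12 (adjusted p = 0.837). Steap2, a metalloreductase, fell by 0.41 on 1442359_at (adjusted p = 0.0104), while its others gave 0.31 (adjusted p = 0.119) and 0.13 (adjusted p = 0.652). With the medians of the arrays set equal, the calls of Fech (-0.19, adjusted p = 0.0552), Ncoa4 (-0.26, adjusted p = 0.0884) and Steap2 (-0.28, adjusted p = 0.0644) were lost.

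Urod and Alad, also of heme synthesis, were each higher on 1 of 2 tested probe sets. Urod averaged 3443 ± 194 in old control and 2505 ± 292 in young control (0.46, adjusted p = 0.00209), and Alad differed by 0.44 (adjusted p = 0.0491). Their other sets gave 0.14 for Urod (adjusted p = 0.394) and -0.04 for Alad (adjusted p = 0.879). Blvrb, a biliverdin reductase downstream of heme breakdown, was higher by 0.61 (adjusted p = 0.0438), and Pcbp2, an iron chaperone and RNA-binding protein, by 0.30 on 1421743_a_at (adjusted p = 0.0119), with its other sets at 0.36 (adjusted p = 0.104) and -0.03 (adjusted p = 0.851). Slc39a14, a zinc and iron importer, was higher on 1427035_at (0.42, adjusted p = 0.00299) and lower on 1425649_at (-0.54, adjusted p = 0.00229), so its probe sets disagreed. With the β-actin ratio in the model, 6 of these calls were lost. The differences were then 0.31 for Urod (adjusted p = 0.0732), 0.48 for Alad (0.132), 0.45 for Blvrb (0.295), 0.19 for Pcbp2 (0.195), -0.24 for Fech (0.0680) and -0.28 for Ncoa4 (0.0819), so that of Alad was no smaller than without the ratio. The Pcbp2 call was also lost under quantile normalization (0.19, adjusted p = 0.0751) and cyclic loess (0.18, adjusted p = 0.0849).

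For the mixture against old control, 2 of the 67 passed, a share near the 3.59% of all probe sets. Keap1, the inhibitor of the oxidative stress regulator Nrf2, averaged 1019 ± 171 in the mixture group and 579 ± 123 in old control (SD, n = 5 each, log2 difference 0.81 ± 0.16 SE, adjusted p = 0.0121). Pcbp2 averaged 869 ± 118 in the mixture group and 1277 ± 165 in old control on 1435881_at (-0.55, adjusted p = 0.0492). The other tested sets did not pass, with 0.06 for Keap1 (adjusted p = 0.772) and with -0.04 (adjusted p = 0.834) and 0.01 (adjusted p = 0.965) for Pcbp2. With the β-actin ratio in the model neither call held (Keap1 0.32, adjusted p = 0.834, and Pcbp2 -0.42, adjusted p = 0.842). The Pcbp2 call was lost under quantile normalization (-0.59, adjusted p = 0.0763) and cyclic loess (-0.60, adjusted p = 0.0681), though the difference was no smaller there. For α-tocopherol against old control, and for the mixture against α-tocopherol, none of the 67 passed. An unadjusted p under 0.05 was reached by 5 of them for α-tocopherol, where 5.45% of all probe sets reached it, and by 6 for the mixture against α-tocopherol, where 8.39% did.

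The genes whose log2 signals were most like the members' over the 20 arrays differed between members. Pearson's r, which here reflects group differences and array scaling together, is given as a description. For Fth1 1448771_a_at they were Tmsb4x (r = 0.959), Rps29 (0.958), Ppp3ca (0.955) and Mbp (0.955). For Trf/Srprb they were Lamp2 (0.936), Pmp22 (0.926), Ppargc1a (0.921) and Man2b1 (0.917). For the light chain set 1422302_s_at they were Mfsd1 (0.875), Cst3 (0.854), Usp30 (0.850) and Stx2 (0.846). For Tfrc 1422966_a_at they were Golph3 (0.938), Ube3a (0.936), Rnf114 (0.935) and Cdc37l1 (0.923), for Cp 1455393_at Rtp4 (0.861), Ifitm3 (0.854), Rnf213 (0.849) and Fcgr2b (0.848), and for Hmox2 2310061I04Rik (0.761), Bpgm (0.758), Polr2h (0.750) and Glrx2 (0.750). With the group means removed, r was 0.88 to 0.92 for the Fth1 genes and 0.68 to 0.78 for the Trf/Srprb genes.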

How the data were processed

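Messenger RNA of the neocortex of 20 mice was measured on Affymetrix arrays. Per the labels' protocols, biotin-labelled cRNA was made from poly(A) RNA by oligo-dT and T7 priming, with 1 animal per array. The spread behind each p-value is thus that between animals. The deposited values are linear signal intensities. GCOS, Affymetrix software, is listed as a tool per the submitters' processing notes. Each deposited array had a 2% trimmed mean of 1000, so a shift of all mRNA one way cannot be seen; background steps and detection calls are not described there. The number of arrays limits the precision.

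The platform annotation gave 1 symbol for 34945 of 45037 probe sets that were not controls, several for 932 and none for 9160. Through the gene identifier, 34741 of the first took the RefSeq GRCm38.p6 symbol and 204 kept the annotation's symbol. The 60% of probe sets with the highest mean log2 signal, 27022, with a limit at a signal of 184, were tested on log2(signal + 16) with limma 3.58.1 in R 4.3.3 (lmFit, eBayes with an intensity trend, all 20 arrays, two-sided, Benjamini-Hochberg over all tested). Means ± SD are of deposited signals, and SE is that of the limma contrast. In simulated data for old control against young control, 50% of 100 probe sets changed 1.5-fold and 91% of 100 changed 2-fold were recovered among 27022, with 4 false calls. The simulated noise was independent, without shifts shared by an array, and far fewer probe sets changed than passed in the data. These shares therefore do not carry over to the measured comparison. Genes named from the list of other iron and heme genes were, per comparison, up to 6 probe sets in each direction with the smallest p among those past the threshold. The most similar genes were the 4 with the highest r for the brightest probe set of each member that passed the F test. Alternatives were pseudocounts of 1 and 64, no limit and a limit at 40%, other scalings, the brightest probe set per gene, a replicate block, the β-actin ratio as a model term, only the compared groups, no intensity trend and leaving out each mouse. The members and lists were chosen with earlier results of these data known. The counts over the 100 brightest probe sets and over marker lists by scaling were added after seeing the data. Promoters came from RefSeq.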

Additional observations from a re-analysis of the deposited data

Results flagged for a closer look

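In 7 of 104 sets of 5 mice, 1 mouse stood apart from the other 4, with a gap to its neighbour of more than 0.710 of the range. Chance gives about 1 in 20 such sets. On Tfrc 1422966_a_at, mixture mouse 5 had a signal of 1701.4 where the other mixture mice had 736 to 820.5. Old control mouse 3 had 2310.9 on Cp 1417494_a_at, where the other old control mice had 530.7 to 851.7, and 1070.9 on Cp 1455393_at, where they had 228.1 to 415.4. On the dim Cp probe set 1441326_at, α-tocopherol mouse 2 had 39.5 (others 9.8 to 17.1) and young control mouse 3 had 77.1 (others 12.9 to 30.4). On Slc11a2 1417584_at, α-tocopherol mouse 3 had 788.1 where the others had 469.7 to 531.5. On Trf/Srprb, young control mouse 5 had 3230.7 where the others had 3140.5 to 3164.9, a small gap in a narrow range.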

How the results depend on the processing

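The Trf/Srprb and Ftl1/Ftl1-ps2 1418364_a_at age differences kept their direction and their side of the threshold under every setting run, and α-tocopherol against old control gave 0 calls in each. Other counts moved. For the mixture against old control, 970 probe sets passed, against 492 with no limit on dim probe sets, 133 (0 members) after quantile normalization, 177 (1 member) after cyclic loess, 603 (1 member) with the brightest probe set per gene, 476 with only the compared groups, 358 with no intensity trend, and 0 (0 members) with the β-actin ratio in the model. Leaving out each mouse gave 280 to 971, with 1 to 2 members, the lowest without mixture mouse 5 (280) or old control mouse 3 (284). For old control against young control, 3039 probe sets (3 members) passed with the brightest probe set per gene and 2028 (3 members) with the covariate, and 3883 to 4685 (6 to 8 members) without each mouse. After quantile normalization 4499 (5 members) passed in that comparison and after cyclic loess 4470 (5 members), with 4 of the 7 main member calls kept in each. For any difference among the 4 groups, the values were 3408 (3 members) with the brightest probe set per gene, 4 members with the covariate, and 4099 to 5890 (6 to 10 members) without each mouse. The mixture against α-tocopherol gave 0 to 64 probe sets and 0 to 1 members without each mouse, 64 without α-tocopherol mouse 5. Fewer probe sets were tested with 1 per gene; the other causes were not tested. The mixture difference of Fth1 1448771_a_at turned to 0.010 after quantile normalization. Setting array medians equal made 84.6% of age calls higher, against 49.4%, and 9.83% of mixture calls, against 36.1%, and moved the median of all probe sets from -0.05 to 0.09 for age. Deviations of same-numbered mice from their group means correlated at r = -0.11 to 0.20 over all tested probe sets (30 pairs, 7 over 0.1). Such correlations cannot tell whether the numbers mark a shared batch. The replicate block gave 5409 and 1338 probe sets and 8 and 2 members for age and the mixture, with Ireb2 added (-0.24, adjusted p = 0.0499). Dim signal limits Hmox1 and 5 other probe sets.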
